A study of Arabidopsis thaliana with 14 samples.

Results

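The genes described are APL3 (AT4G39210), the vacuolar invertase gene AT1G62660 and QQS (AT3G30720), 3 genes of starch and vacuolar sugar storage in Arabidopsis thaliana. They were taken as the probe sets that name 1 of these genes alone in the platform annotation, which gave 1 probe set for each gene, 3 of the 13286 genes so named. All 3 were selected on their measured intensities in inflorescences, where gir and Col-7 differed. That difference is therefore given as values without a test. The root comparison used none of the arrays that chose the genes, while the comparison of tissues shares the inflorescence arrays with the choice.

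Transcripts were measured on 14 Affymetrix arrays, 1 for each RNA sample. Inflorescences were cut from plants grown in soil to an age of 33 days, with 4 arrays of gir and 4 of Col-7, and the labels call this tissue flower although opened and opening flowers had been discarded. Roots were excised from plants aged 21 days after a period on 4% glucose, with 3 arrays of gir and 3 of Col-7. The gir plants carry the gir1 mutation, named for glucose-inhibited root elongation, and Col-7 is the wild type. No table used here ties the mutated gene to a locus, so its own level was not analysed. The labels do not say whether replicates came from separate plants, so the spread between arrays may be partly technical, and the number of arrays limits the precision. Inflorescences and roots differed in age, growth medium and glucose as well as in organ, and these cannot be told apart. The signal of a bacterial control sequence also differed between inflorescence and root arrays.

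Starch is made in plastids from ADP-glucose, which is supplied by ADP-glucose pyrophosphorylase, an enzyme of small catalytic subunits and large regulatory subunits. Sucrose can instead be held in the vacuole, where acid invertases split it into glucose and fructose, and carriers in the vacuolar membrane move these sugars in and out. APL3 encodes a large subunit of the pyrophosphorylase that is known from sink tissues such as roots and responds to sugar supply. AT1G62660 encodes an acid invertase of the vacuole. QQS encodes a small protein with no recognisable relatives outside Arabidopsis thaliana, known because plants with less of it hold more leaf starch and plants with more of it hold less.

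Root hair and tapetum genes differed between the tissues in the direction of the labels. The summed intensity of 2 root hair expansin genes was 36.0 to 91.5 in gir inflorescences, 25.5 to 57.7 in Col-7 inflorescences, 2251 to 2368 in roots of gir and 1933 to 2061 in roots of Col-7. The summed intensity of 5 tapetum genes was 5752 to 6285 in gir inflorescences and 5523 to 6434 in Col-7 inflorescences, against sums of 71.7 to 121 in the roots of gir and of 81.6 to 103 in those of Col-7. The inflorescences of the 2 genotypes differed in late pollen genes. Their summed intensity over the 7 measured of 13 listed was 368 to 619 in gir inflorescences, against 3364 to 3846 in Col-7 inflorescences. In gir inflorescences 6 of the 7 lay below the 40th percentile of every array, ACT12 being the exception, and none of the 7 did so in Col-7 inflorescences. The summed intensity of 3 green tissue genes was 25439 to 27002 in gir inflorescences, against 19062 to 22677 in Col-7 inflorescences. The same 3 genes were also above the 40th percentile on root arrays, with sums of 2908 to 3163 in roots of gir and 2941 to 3108 in roots of Col-7. The part of these marker differences in the values below was not tested. In whole-tissue RNA, fewer cells of a type and less RNA in each cell cannot be told apart.

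QQS was higher in gir than in Col-7 in inflorescences, and in roots of both genotypes it was close to the dark end of the array. Its intensity in gir inflorescences was 1133.8, 1236.3, 1361.6 and 1831.4 on replicates 1 to 4, against 301.2, 359.3, 397.8 and 330.7 in Col-7 inflorescences. Every gir array was above every Col-7 array, with replicate 4 of gir the highest. The means were 1391 ± 308 in gir and 347 ± 41.2 in Col-7 (SD, n = 4 each), a ratio of 4.01. On the log2(intensity + 26) scale, where the added 26 damps the change of dim genes, the difference was 1.91 ± 0.14 (SE), and 99.9% of the probe sets tested had the same or a lower value. On the arrays themselves QQS stood between the 86.4th and 92.2nd percentile of intensities in gir inflorescences, against the 56.5th to 63.0th in Col-7 inflorescences.

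In roots QQS was dim in both genotypes. Its intensity in gir roots was 30.2, 38.0 and 33.4, against 16.3, 4.8 and 18.4 in Col-7 roots. The gir arrays were again all above the Col-7 arrays, a state found for 10.8% of all probe sets in roots. None of the 6 values reached the 40th percentile of its array, which was 111.2 to 117.0 for the gir root arrays and 117.8 to 120.4 for the Col-7 root arrays, so QQS was not among the probe sets tested there. The log2 difference was 0.63 ± 0.17 (plain SE from the QQS values alone, where the other log2 differences carry limma's moderated SE). When the filter on dim probe sets was dropped, the moderated SE was 0.15 and the adjusted p of limma was 0.0848, which did not pass the threshold of 0.05.

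AT1G62660 was a bright root gene in both genotypes, and in inflorescences it was lower in gir than in Col-7. Its intensity in gir inflorescences was 658.1, 569.3, 606.6 and 525.5, against 863.1, 891.5, 1048.4 and 1028.3 in Col-7 inflorescences. The groups did not overlap, and the highest gir array was still below the lowest Col-7 array. The means were 590 ± 56.3 in gir and 958 ± 94.1 in Col-7 (SD, n = 4 each), a ratio of 0.616. The log2 difference was -0.68 ± 0.10 (SE), with 6.59% of tested probe sets at or below it.

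In roots the intensity of AT1G62660 was 5403.5, 5649.7 and 6380.6 in gir, against 6312.5, 6139.6 and 6680.7 in Col-7. The ranges overlapped through replicate 3 of gir, the brightest gir array. The means were 5811 ± 508 in gir and 6378 ± 276 in Col-7 (SD, n = 3 each), and both groups stood at or above the 97.9th percentile of their arrays. The log2 difference of -0.14 ± 0.08 (SE, 95% interval -0.33 to 0.05) did not pass the limma test (adjusted p = 0.334).

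APL3 was lower on average in gir than in Col-7 inflorescences, and its arrays scattered widely within a group. Its intensity in gir inflorescences was 250.0, 159.5, 108.5 and 142.6, against 318.7, 204.2, 239.2 and 286.2 in Col-7 inflorescences. Replicate 1 of gir was above replicates 2 and 3 of Col-7, so the groups overlapped, while the other 3 gir arrays lay below all 4 Col-7 arrays. The means were 165 ± 60.4 in gir and 262 ± 50.6 in Col-7 (SD, n = 4 each), a ratio of 0.630, and the coefficient of variation was 36.6% in gir and 19.3% in Col-7. The log2 difference was -0.63 ± 0.20 (SE), with 7.15% of tested probe sets at or below it. In gir inflorescences 3 of 4 arrays reached the 40th percentile of intensities, against 4 of 4 in Col-7 inflorescences.

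In roots the intensity of APL3 was 141.1, 98.2 and 117.2 in gir, against 130.7, 147.6 and 145.7 in Col-7. The ranges overlapped, because replicate 1 of gir was above replicate 1 of Col-7. The means were 119 ± 21.5 in gir and 141 ± 9.28 in Col-7 (SD, n = 3 each). The log2 difference of -0.22 ± 0.11 (SE, 95% interval -0.47 to 0.03) did not pass the limma test (adjusted p = 0.243). Neither of the 2 storage genes tested in roots was called at an adjusted p of 0.05, and neither had an unadjusted p under 0.05, against 11.9% of all probe sets called there. In inflorescences, the contrast that chose the genes, 2 of the 3 had groups that did not overlap, QQS higher and AT1G62660 lower, where 14.9% of tested probe sets did so higher and 13.0% lower.

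**Figure D1:**
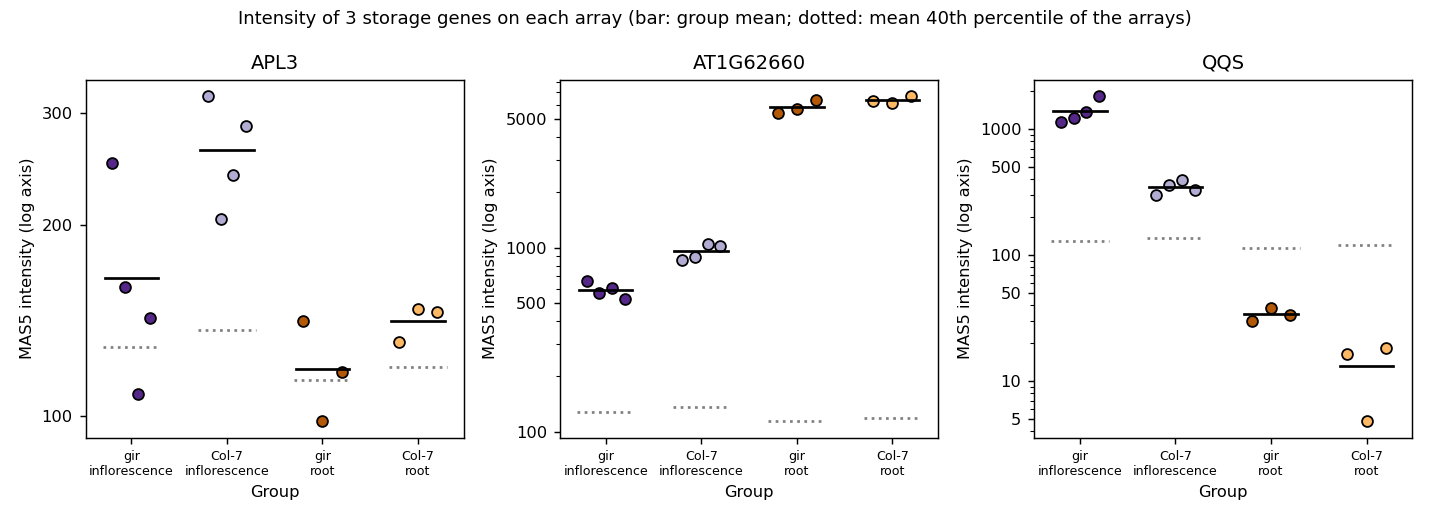
Intensity (log axis) of APL3, AT1G62660 and QQS on each of the 14 arrays, by group. Points are arrays in replicate order, bars are group means and dotted lines are the mean 40th percentile of the arrays of a group. QQS is at 1133.8 or more on all gir inflorescence arrays and at 38.0 or less on all root arrays, AT1G62660 is at 5403.5 or more on all root arrays, and APL3 lies near the dotted lines in roots.

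The size of the gir to Col-7 difference in inflorescences was not the same at every replicate number. The numbers were treated as pairing the arrays there, since same-numbered arrays deviated from their group means together. Arrays of different numbers also did so within replicates 1 and 2 and within replicates 3 and 4. The main fits used no pairing. For QQS the log2 differences of replicates 1 to 4 were 1.83, 1.71, 1.71 and 2.38. For AT1G62660 they were -0.38, -0.62, -0.76 and -0.94, and for APL3 they were -0.32, -0.31, -0.98 and -0.89. All 12 differences had the sign of the group difference, which for QQS and AT1G62660 follows from groups that did not overlap. Those of APL3 fell into smaller ones for replicates 1 and 2 and larger ones for replicates 3 and 4. Fitted on replicates 1 and 2 alone, the difference of AT1G62660 was -0.50 and that of APL3 was -0.32. Fitted on replicates 3 and 4 alone, the difference of AT1G62660 was -0.85 and that of APL3 was -0.93. The 25S ribosomal RNA control signal also differed between these replicates, at 359 to 954 in gir and 345 to 835 in Col-7 for replicates 1 and 2, and at 2768 to 8660 in gir and 3424 to 6585 in Col-7 for replicates 3 and 4. Its part in the differences was not tested.

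**Figure D2:**
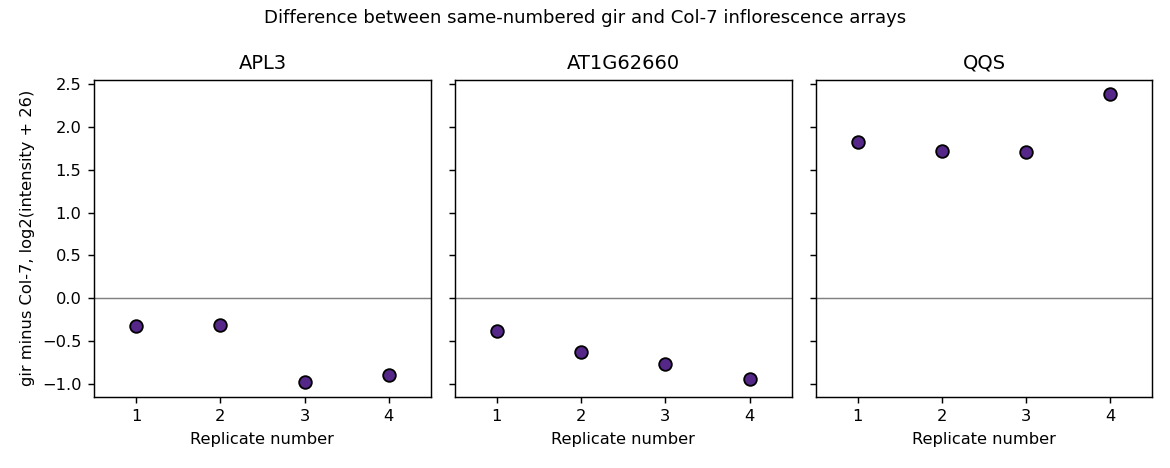
Difference between the gir and the Col-7 inflorescence array of the same replicate number for APL3, AT1G62660 and QQS, in log2(intensity + 26). Each point is 1 pair of arrays, and the grey line marks no difference. All QQS points lie above 0, between 1.71 and 2.38, and all APL3 and AT1G62660 points lie below 0.

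AT1G62660 was lower in inflorescences than in roots in both genotypes, with non-overlapping arrays, as 76.1% of tested probe sets had in gir and 77.6% in Col-7, and limma gave a log2 difference of -3.25 ± 0.10 in gir (SE, adjusted p = 3.46e-09) and of -2.71 ± 0.09 in Col-7 (adjusted p = 4.04e-09). On the linear scale the ratio of inflorescence to root means was 0.102 in gir and 0.150 in Col-7. The lower ratio in gir partly restates the choice of the gene, which used these inflorescence arrays. All inflorescence arrays were above all root arrays for QQS in both genotypes. It entered the tissue comparison only through its inflorescence values, so no test is given, and with root values this dim the size of the difference depends on the added 26.

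APL3 was higher in inflorescences than in roots in Col-7, by 0.77 ± 0.13 on the log2 scale (SE, limma adjusted p = 0.000516), and the arrays of the tissues did not overlap. In gir the same difference was 0.36 ± 0.22 (SE, 95% interval -0.13 to 0.85), the arrays overlapped, and it did not pass the test (adjusted p = 0.159). Without replicate 3 of the gir inflorescences, the dimmest of the group, it was 0.51 and passed (adjusted p = 0.0414). APL3 was chosen on these inflorescence arrays, where its Col-7 values were the higher, so none of these p-values is free of that choice. They are given as descriptions. A larger tissue difference in Col-7 than in gir also partly restates the choice. Between tissues 75.9% of all probe sets were called in gir and 77.8% in Col-7, so a call there sets no gene apart. The signals of control probe sets also differed between inflorescence and root arrays, among them the dap control, which is a bacterial sequence and not a plant gene. The 3' signal of the dap control was 337 to 408 in gir inflorescences and 318 to 415 in Col-7 inflorescences, against 0.94 to 5.18 in roots of gir and 1.53 to 10.09 in roots of Col-7. The 5' signal of GAPDH averaged 2393 in gir inflorescences and 2670 in Col-7 inflorescences, beside 3' signals of 5160 and 5730, against 8373 in roots of gir and 9090 in roots of Col-7, beside 3' signals of 7819 and 8505. In a further GAPDH control the ends were closer in inflorescences, at 5' signals of 6495 in gir and 6818 in Col-7, beside 3' signals of 7983 and 8304. Its 5' signals in roots were 16161 in gir and 17654 in Col-7, beside 3' signals of 15235 and 15678. Their part in the tissue differences was not tested.

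Ordered from low to high, AT1G62660 stood at 590 in gir inflorescences, 958 in Col-7 inflorescences, 5811 in roots of gir and 6378 in roots of Col-7, and the neighbours at the top of that order, gir and Col-7 roots, did not differ beyond their spread. For QQS the order, high to low, was 1391 in gir inflorescences, 347 in Col-7 inflorescences, 33.9 in roots of gir and 13.2 in roots of Col-7, with no overlap between neighbours. APL3 stood at 165 in gir inflorescences, 262 in Col-7 inflorescences, 119 in roots of gir and 141 in roots of Col-7. Its order from low to high was thus gir roots, Col-7 roots, gir inflorescences and Col-7 inflorescences, and the arrays of each neighbouring pair overlapped.

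The genotype difference in inflorescences minus that in roots was -0.54 ± 0.13 for AT1G62660 and -0.41 ± 0.27 for APL3 (log2 scale, moderated SE). None is given for QQS, which lay below the level for testing on all root arrays. These values are descriptions, since the inflorescence side of each comes from the contrast that chose the genes.

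Other genes of the same pathways were taken from lists of 133 loci, of which 37 had a probe set naming them alone, the 3 storage genes among them. The lists were chosen with earlier results of these data known, so the shares called, here and list by list below, are descriptions. Of the other 34, 29 were tested in inflorescences, and 9 of these passed the limma test, 1 higher and 8 lower in gir. That is 31.0%, against 25.0% of all probe sets tested in inflorescences, of which 12.5% were higher and 12.5% lower. Another 5 had an unadjusted p under 0.05 without passing. With the replicate number as a block 14 passed, 3 higher and 11 lower. The median log2 difference of the 29 was -0.10, against 0.06 over all tested probe sets. In roots 23 were tested and 1 passed, as lower, which is 4.35% against 11.9% of all probe sets (6.36% as lower), and 5 had an unadjusted p under 0.05. Their median root difference was -0.04, against -0.01 over all tested probe sets.

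Of the starch synthesis list, 6 genes besides APL3 were tested in inflorescences and none passed the limma test, with 1 at an unadjusted p under 0.05. That gene was APL4 (AT2G21590), another large subunit of ADP-glucose pyrophosphorylase. APL4 read 255.1, 206.3, 128.5 and 165.7 in gir inflorescences, against 288.7, 293.1, 252.7 and 228.2 in Col-7 inflorescences. The groups overlapped through replicate 1 of gir, as for APL3, and replicate 3 of gir was again the dimmest array. Its log2 difference was -0.47 ± 0.17 (SE, adjusted p = 0.0657), and it passed with the replicate number as a block (adjusted p = 0.0128) and without replicate 1 of gir (adjusted p = 0.0106). The other 5 differed by -0.10 to 0.19. In roots APL4 averaged 35.9 in gir and 35.1 in Col-7, below the level for testing. The genes for the remaining subunits of the enzyme, APL1, APL2, APS1 and APS2, had no probe set naming them alone and were not analysed here.

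Of the starch breakdown list, 5 genes were tested in inflorescences and 1 passed, as lower. It was AMY1 (AT4G25000), an alpha-amylase that is secreted from the cell. AMY1 read 169.8, 237.2, 188.7 and 175.7 in gir inflorescences, against 440.9, 394.7, 395.4 and 493.8 in Col-7 inflorescences. The groups did not overlap, and the log2 difference was -1.07 ± 0.11 (SE, limma adjusted p = 5.43e-05). In roots AMY1 was dim, at means of 34.1 in gir and 41.7 in Col-7. The other 4 genes differed by -0.25 to 0.11 in inflorescences.

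The vacuolar transport list held the largest share of calls among the lists with 5 or more tested genes. The sucrose synthesis list, with 3 tested, held a larger one of 66.7%. Of 7 vacuolar transport genes tested in inflorescences, 3 were lower in gir, 1 was higher and 3 did not pass. That is 57.1% called, against 25.0% of all probe sets tested in inflorescences. TMT3 (AT3G51490), a carrier that loads glucose and fructose into the vacuole in exchange for protons, read 231.2, 171.8, 160.3 and 142.9 in gir inflorescences, against 582.2, 562.5, 551.9 and 572.5 in Col-7 inflorescences. Every gir array was far below every Col-7 array, and the log2 difference was -1.57 ± 0.12 (SE, limma adjusted p = 3.89e-06). TMT1 (AT1G20840), a related carrier, averaged 454 in gir and 558 in Col-7 inflorescences, with a log2 difference of -0.28 ± 0.08 (SE, adjusted p = 0.0229). That call was lost without replicate 2 or 4 of Col-7 or replicate 2, 3 or 4 of gir (adjusted p = 0.0531 to 0.0625). In roots TMT1 averaged 2517 in gir and 2776 in Col-7 and did not pass (log2 difference -0.14, adjusted p = 0.256).

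SFP2 (AT5G27360), a sugar porter of the family that includes vacuolar exporters, read 190.8, 209.0, 141.0 and 119.3 in gir inflorescences, against 300.9, 299.1, 261.4 and 265.5 in Col-7 inflorescences. The groups did not overlap, and the log2 difference was -0.71 ± 0.15 (SE, limma adjusted p = 0.00516). SWEET17 (AT4G15920), a facilitator that lets fructose cross the vacuolar membrane, was the gene of the pathway lists that passed as higher in gir inflorescences. It read 1549.5, 1049.6, 1167.1 and 1171.6 in gir, against 962.1, 1002.3, 768.0 and 738.6 in Col-7. The log2 difference was 0.49 ± 0.14 (SE, adjusted p = 0.0266), and it was lost without replicate 3 (adjusted p = 0.0749) or replicate 4 (adjusted p = 0.0740) of Col-7.

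In roots SWEET17 read 1152.3, 1139.4 and 1176.6 in gir, against 1368.1, 1426.7 and 1353.1 in Col-7. The groups did not overlap, with gir the lower, and this was the 1 gene of the pathway lists that passed in roots (log2 difference -0.25, limma adjusted p = 0.0401). Leaving out any 1 of the 6 root arrays ended that call (adjusted p = 0.0670 to 0.132). After median centring SWEET17 did not pass (adjusted p = 0.0827), and the 1 gene that passed in roots was instead AKINBETA1, a subunit of SnRK1, which was higher in gir by 0.29 (adjusted p = 0.0398). The difference between the tissues was itself tested for 20 genes of the pathway lists, and 3 passed, 15.0% against 18.2% of all probe sets tested. For SWEET17 it was 0.75 (limma adjusted p = 0.00832). The other two were AT5G65685 of the starch synthesis list (0.44, adjusted p = 0.0125) and AT2G35840 of the sucrose synthesis list (-0.52, adjusted p = 0.0496). The call of AT2G35840 ended after quantile normalization, after median centring and with the smaller pseudocount (adjusted p = 0.0514 to 0.0530). It also ended without 11 of the 14 arrays, left out one at a time (adjusted p up to 0.107), and without replicate 1 of the gir inflorescences 6 genes passed in place of 3.

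Of the sucrose synthesis list, 3 genes were tested in inflorescences and 2 were lower in gir. AT2G35840 read 693.0, 697.5, 520.5 and 488.3 in gir, against 1025.2, 1009.5, 934.4 and 788.6 in Col-7. The groups did not overlap, and the log2 difference was -0.64 ± 0.13 (SE, limma adjusted p = 0.00655). USP (AT5G52560), which makes UDP-sugars, averaged 899 in gir and 1163 in Col-7 inflorescences, with a log2 difference of -0.37 ± 0.10 (SE, adjusted p = 0.0256). The USP call was lost without replicate 1 or 3 of Col-7 or replicate 2, 3 or 4 of gir (adjusted p = 0.0591 to 0.0691). The third, ATSPS4F, was at 0.37 and did not pass.

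Of the hexose phosphorylation list, 5 genes were tested in inflorescences and 2 were lower in gir. AT4G10260 read 528.8, 377.6, 283.2 and 299.4 in gir, against 828.9, 1023.6, 842.9 and 849.9 in Col-7. The groups did not overlap, and the log2 difference was -1.23 ± 0.17 (SE, limma adjusted p = 0.000419). In roots AT4G10260 was near the bottom of the array, at means of 16.5 in gir and 17.4 in Col-7. AT2G31390 averaged 1208 in gir and 1612 in Col-7 inflorescences, with a log2 difference of -0.41 ± 0.13 (SE, adjusted p = 0.0463). Its call was lost without replicate 1, 2 or 4 of Col-7 or replicate 2, 3 or 4 of gir (adjusted p = 0.0644 to 0.120).

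Of the list that goes with QQS, which holds its binding partner NF-YC4 and genes of the SnRK1 energy-sensing kinase complex and of trehalose phosphate, 3 genes besides QQS were tested in inflorescences. The log2 differences of these 3 were -0.14 to 0.40, none passed the limma test and none had an unadjusted p under 0.05. NF-YC4 itself, the second vacuolar invertase and the invertase inhibitors had no probe set naming them alone and were not analysed here. The 6 late pollen genes tested in inflorescences had a median log2 difference of -2.18. All of them but ACT12 passed the filter through their Col-7 arrays alone, so for those a lower value in gir follows from how they passed. ACT12 averaged 137 in gir and 695 in Col-7 inflorescences. ANX1, which did not pass the filter, averaged 22.6 in gir and 129 in Col-7 inflorescences. The part of the late pollen difference in the falls of the 8 pathway genes that were lower was not tested.

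**Figure D3:**
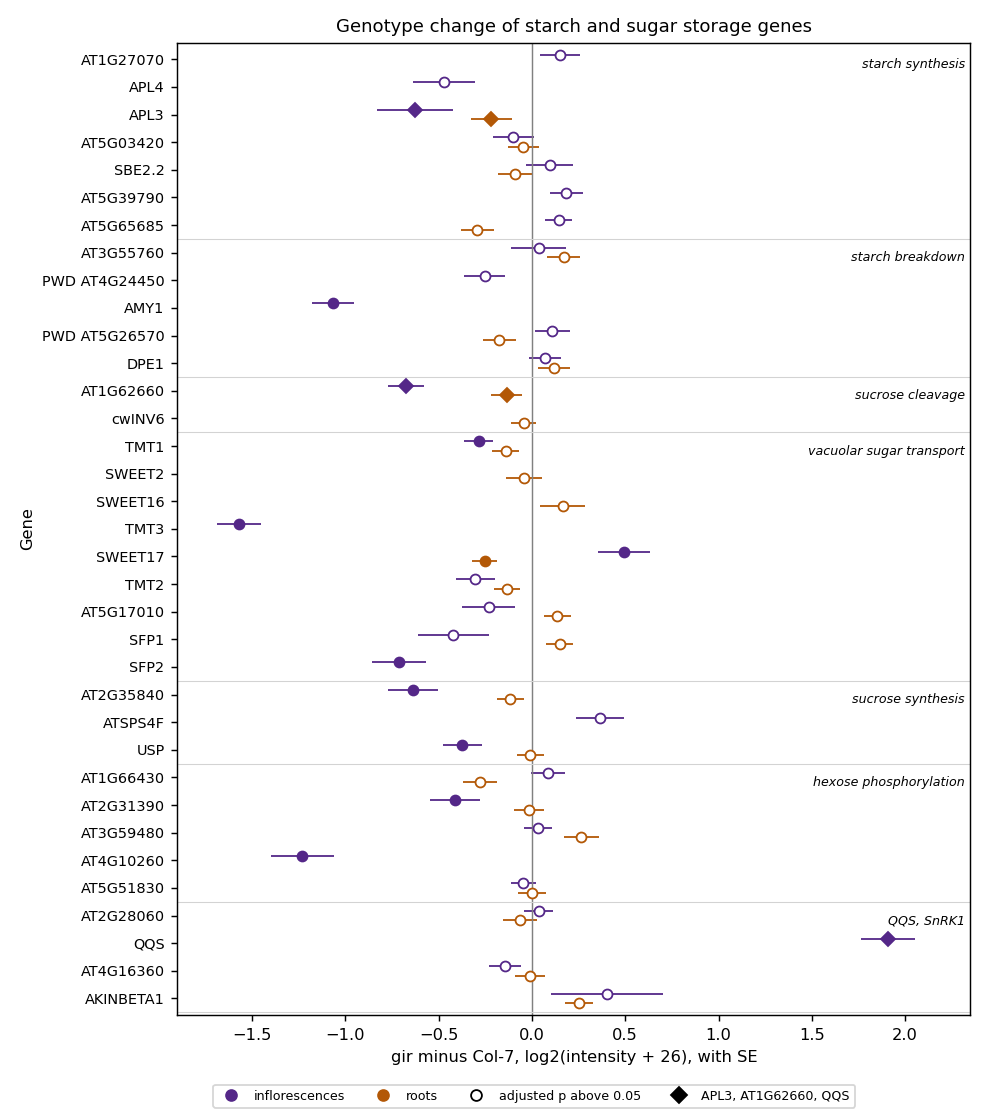
Difference between gir and Col-7 in log2(intensity + 26), with its SE, for each tested gene of the pathway lists, in inflorescences (purple) and roots (orange). Filled circles passed an adjusted p of 0.05, open circles did not, and diamonds are APL3, AT1G62660 and QQS, which are filled whatever their test. TMT3, AT4G10260 and AMY1 lie at the left between -1.57 and -1.07, and QQS stands alone at the right at 1.91.

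Over the 14 arrays AT1G62660 and QQS ran in opposite directions, with a Pearson correlation of -0.975 of their log2 values, across tissues that differed in both. Over the 8 inflorescence arrays alone it was -0.945, and that of APL3 was 0.738 with AT1G62660 and -0.783 with QQS. Within groups, with the group means taken out, the same 3 correlations were -0.31, 0.28 and -0.59. The arrays share their scaling and their genotype and tissue groups, and the values are descriptions of these arrays.

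The named genes whose log2 values followed each storage gene most closely over the 14 arrays were sought among 8550 probe sets. Each of these named 1 gene and passed the filter in roots or inflorescences. For QQS the closest were PME61, AT3G61100, AT3G04210, AT2G26190 and AT3G57600, with correlations of 0.988 to 0.992, and 231 probe sets had a correlation above 0.95. For AT1G62660 they were AT5G61820, UBC30, AT3G13610, MT1C and AT5G39590, with correlations of 0.995 to 0.997, and 930 probe sets had one above 0.95. For APL3 they were AT3G43270, P1R1, AT1G60590, AT1G63490 and AT3G01980, with correlations of 0.889 to 0.907, and no probe set exceeded 0.95. A gene that merely differs between roots and inflorescences gains a high correlation with AT1G62660 and QQS.

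**Figure D4:**
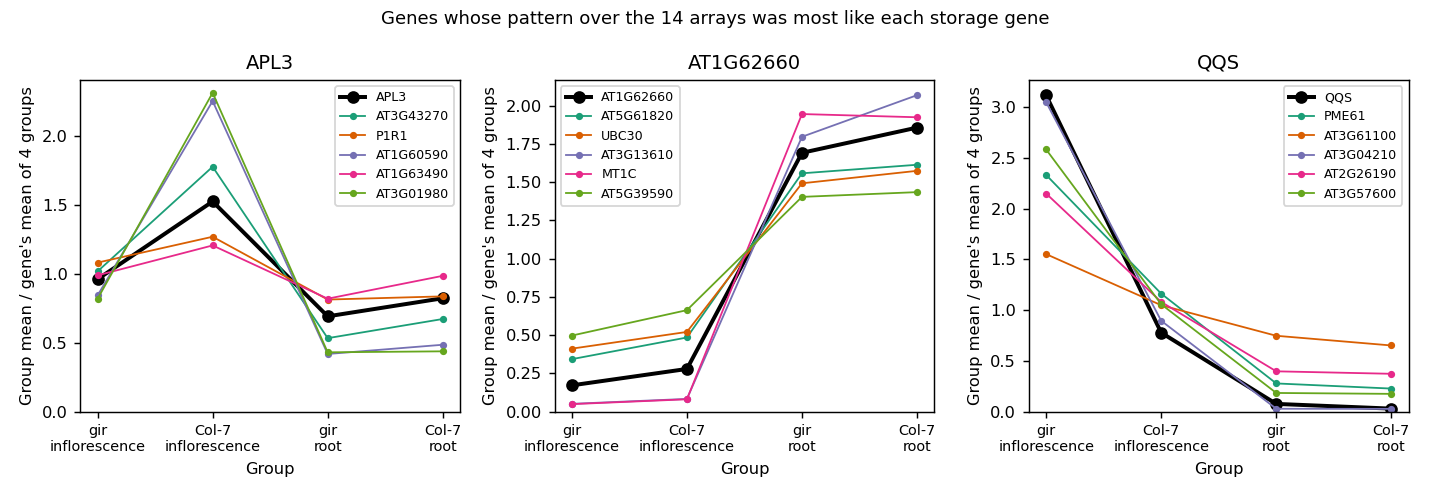
Group means of each storage gene (black) and of the 5 genes with the highest correlation over the 14 arrays (colours), each divided by the gene's mean over the 4 groups. Lines join the groups only to guide the eye. The APL3 panel peaks in Col-7 inflorescences, the AT1G62660 panel is low in both inflorescence groups and high in both root groups, and the QQS panel peaks in gir inflorescences.

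The genes lie on chromosomes 4 (APL3), 1 (AT1G62660) and 3 (QQS). The 10 measured genes nearest to each, 5 on either side in gene order, were looked at after the values above were seen. Many of these were not adjacent. Counted in genes along the chromosome, with a minus for before, they lay at -9 to 7 for APL3, -23 to 11 for AT1G62660 and -32 to 37 for QQS. Around APL3, 9 were tested in inflorescences and none passed the limma test, with log2 differences of -0.32 to 0.20. In roots 9 were tested and AT4G39230 passed, with a log2 difference of -0.34 (adjusted p = 0.0330). Around AT1G62660, 4 were tested in inflorescences and 1 passed, AT1G62500 at -22. It was higher in gir by 0.74 (adjusted p = 0.000563) where AT1G62660 was lower. None of the 5 neighbours of AT1G62660 tested in roots passed. Around QQS none of the 10 reached the level for testing in either tissue.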

How the data were processed

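The authors deposited linear intensities for 22810 probe sets per array, made with MAS5, per the submitters' processing notes. Neither the version of MAS5 nor a genome build is named in those notes or the file. On every array the mean intensity without the lowest and highest 2% was 500. Roots had 11 days without glucose and 10 days on 4% glucose, per the series' design text, while the labels' protocols give 7 days on a first plate.

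Intensities were taken as log2(intensity + 26), 26 being the 20th percentile of all values, without the 64 control probe sets. Testing required the array's own 40th percentile to be reached on as many arrays as there were in the smaller group, or more. Each contrast was fitted with limma 3.58.1 (lmFit, eBayes) in R 4.3.3, two-sided, with Benjamini-Hochberg adjustment over all tested probe sets and a threshold of 0.05. The fits were tested on simulated data. Interaction terms used all 14 arrays. Python 3.11.15 with matplotlib 3.10.9 served for the plots.

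Of 14016 annotated probe sets 13513 named exactly 1 gene, 503 did not, and 13436 matched the TAIR10.1 gene table. The named genes are the 3 storage genes, up to 6 called genes per list and tissue, the relatives of the storage genes, and the 5 most correlated genes. The genes and lists were chosen with earlier results of these data known. Same-numbered inflorescence arrays correlated in their deviations from group means (0.587, 0.191, 0.203 and 0.516), each above 0.1. Different-numbered arrays did so within replicates 1 and 2 (0.188 and 0.119) and within replicates 3 and 4 (0.249 and 0.402). Across these sets the correlations were -0.538 to -0.041. The numbers were taken as pairs for the same-number differences only. The main fits had no replicate block, which was an alternative. Same-numbered root arrays (0.077, 0.007 and 0.017) were not taken as pairs. No sequences were used here.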

Additional observations from a re-analysis of the deposited data

Results flagged for a closer look

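The Col-7 inflorescence array of replicate 2 stood apart for AT4G10260, a locus of the hexose phosphorylation list, with an intensity of 1024 where the other 3 Col-7 arrays were at 829 to 850. This was 1 of 28 groups of arrays examined for an array far from the rest, and chance gives about 1 in 20.

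The gir to Col-7 difference was not the same in inflorescences and roots for 3 pathway genes by limma's interaction test. For SWEET17, which carries fructose across the vacuolar membrane, it was greater in inflorescences by 0.75 on the log2 scale, with a value of 0.49 in inflorescences and -0.25 in roots. For AT5G65685 of the starch synthesis list it was greater by 0.44, with values of 0.14 in inflorescences and -0.29 in roots, neither of which passed its own test (adjusted p = 0.171 and 0.0704). For AT2G35840 of the sucrose synthesis list it was -0.52, with values of -0.64 in inflorescences and -0.11 in roots.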

How the results depend on the processing

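The inflorescence differences of APL3 (-0.93 to -0.32) and QQS (1.77 to 2.05) kept their direction in all alternatives run, and the root tests of APL3 (adjusted p = 0.0995 to 0.641) and AT1G62660 (0.177 to 0.638) passed in none. The difference of AT1G62660 in inflorescences was -0.50 with replicates 1 and 2 alone and -0.85 with replicates 3 and 4 alone. The replicate block changed neither root test. The tissue calls of AT1G62660 in both genotypes and of APL3 in Col-7 were kept in all alternatives run. These calls use inflorescence arrays that chose the genes, so their p-values are not free of that choice. The gir tissue difference of APL3 passed without replicate 3 of the gir inflorescences (0.51, 0.17 to 0.51 over the arrays left out). The 9 inflorescence calls of pathway genes became 14 with the replicate block and 5 with replicates 1 and 2 alone, and 6 to 12 with an array left out. The 1 root call (SWEET17, lower) was replaced by another, higher, after median centring (AKINBETA1, adjusted p = 0.0398). It became 0 without the filter, with the block and in the joint fit, 3 with the stricter filter (60th percentile) and 0 to 1 with an array left out. The 3 calls of a difference between tissues (2 higher, 1 lower) became 2, both higher, after quantile normalization, after median centring and with the smaller pseudocount of 8, 5 without the filter, 7 with the replicate block, and 2 to 6 with an array left out. For 11 named pathway genes 323 alternative values were computed, of which 260 kept direction and side of the threshold, 50 lost the call, 6 gained it and 7 turned sign. All 7 were root values near 0, of AT2G31390 (0.027 after median centring, -0.0652 to 0.0367 with an array left out) and of USP (0.0332 after median centring, -0.0432 to 0.0343). The calls of TMT3, AMY1, AT4G10260, SFP2 and AT2G35840 in inflorescences were kept in all alternatives run for them. SFP2 and APL3 did not reach the stricter filter, so neither has a value there. Median centring gave 2473 probe sets higher and 1577 lower in inflorescences, against 1744 and 1743, and 1037 and 690 in roots, against 758 and 878. Where a value changed, the cause was not tested. Dim signals limit QQS in roots and APL3 throughout.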
